A study of Homo sapiens with 4 samples.

Results

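Summits of TBX3 binding were examined at 10 genes of the Notch pathway in 501mel, an established human melanoma cell line. The 10 genes were chosen by name, and HEY1 was among them because the deposited annotation gave it the highest peak score of each list. They were the targets HEY1, HEY2, HEYL and HES1, the receptors NOTCH1, NOTCH2 and NOTCH3, the ligands JAG1 and DLL1, and the DNA-binding factor RBPJ. A peak belonged to a gene when the deposited annotation gave that gene as the one with the nearest transcription start site (TSS), at any distance. By this rule 67 of 72973 peaks were members, 25 of 32479 in replicate 1 and 42 of 40494 in replicate 2.

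The series holds chromatin immunoprecipitation followed by sequencing (ChIP-seq) of TBX3, a T-box transcription factor, carrying a 3xHA tag. The 2 ChIP samples were precipitated with an antibody against the tag, and 2 Input samples from the same cell line were not analysed here. All samples came from formaldehyde-fixed cells of this 1 line, so the data describe tagged TBX3 and not the untagged protein of the cells. The labels do not say whether the replicates were separate cultures, so the spread between them may be technical.

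Notch signalling passes between touching cells. Ligands of the Jagged and Delta families on one cell bind Notch receptors on its neighbour, proteases then cut the receptor, and its freed intracellular part enters the nucleus. There it joins RBPJ, which sits on DNA as a repressor without Notch, and with coactivators it switches on targets such as the HES and HEY genes. These encode repressors of the basic helix-loop-helix (bHLH) class. In the melanocyte lineage the pathway is known for its part in keeping the melanocyte stem cells of the hair follicle, where RBPJ and HES1 are required.

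Binding recurred at all 4 target genes, at NOTCH2 and at RBPJ, and at none of NOTCH1, NOTCH3, JAG1 and DLL1 under the nearest-TSS rule. A region was counted as found in both replicates when its 2 summits were each other's nearest and at most 200 bp apart. There were 18 such regions, 5 at HEY1, 5 at NOTCH2, 3 at RBPJ, 2 at HES1, 2 at HEYL and 1 at HEY2. They made up 72.0% of the replicate 1 member peaks (95% Wilson interval 52.4% to 85.7%) and 42.9% of those in replicate 2 (29.1% to 57.8%). The intervals cover counting error only and treat peaks as independent. Peaks of 1 library are not replicates and some lie close together, so the intervals do not measure spread between replicates. Over all peaks the shares were 69.9% and 56.1%. Recurrence was among the values the rule used, so these shares are a description and nothing is read from them. The replicate 2 score was the higher of the pair in 15 of the 18 regions, as in 75.0% of all regions.

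**Figure D1:**
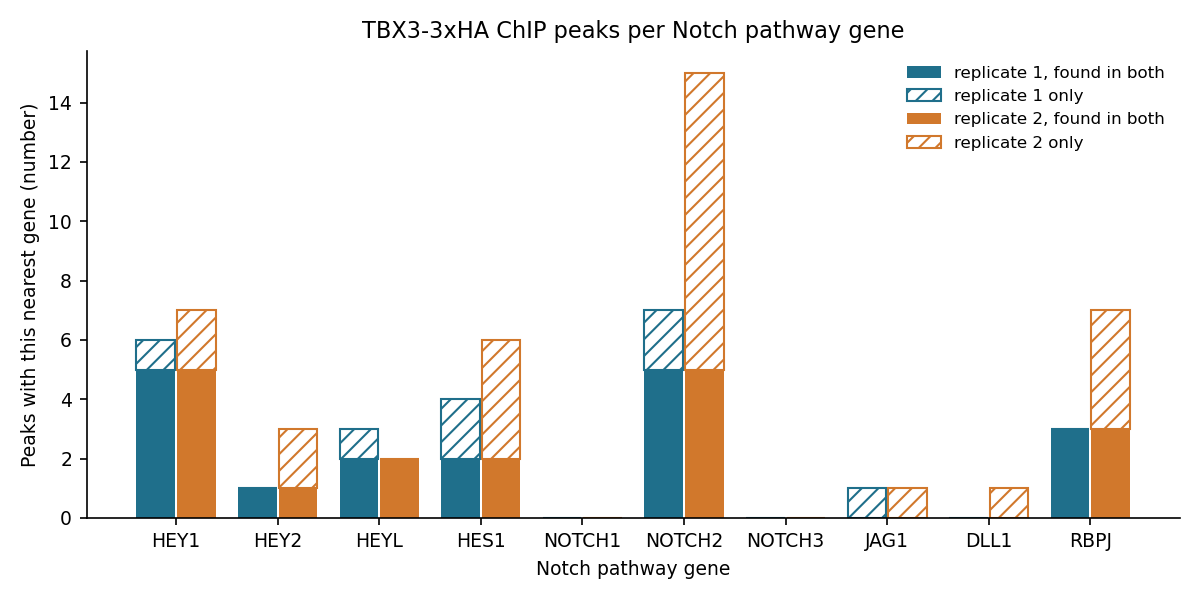
Number of peaks (vertical axis) whose nearest TSS belongs to each Notch pathway gene (horizontal axis), with replicate 1 in blue and replicate 2 in orange. Solid parts are peaks found in both replicates and hatched parts are peaks of 1 list, and NOTCH2 has the tallest hatched part, 10 peaks of replicate 2.

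At distances up to 10 kb from a TSS, 6 of the 10 genes had a region in both replicates, namely HEY1, HEY2, HEYL, HES1, NOTCH2 and RBPJ. Among 19974 protein-coding genes the share was 10.1%. The same 6 genes were those with a region at any distance, for which the share of protein-coding genes was 28.6%. Because the genes were named with these results known, the counts are a description and carry no test. Within 1 kb the number was 3, made up of HES1, HEY2 and RBPJ, each with a summit at its annotated promoter, beside 2.99% of protein-coding genes.

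The member regions lay at 3 kinds of place in the deposited annotation. Of the 18, 11 were intergenic, 4 were in introns and 3 were at promoters, while 53.2% of all 22702 regions were intergenic, 39.7% intronic and 2.52% at promoters. The replicate 1 summit fell in an annotated repeat at 1 member region, an L2a element at HEY1, against 41.7% of all regions by the replicate 1 summit. In replicate 2 the summits fell in that element, in a MIR3 element at another HEY1 region and in an L2b element at NOTCH2. Summits of a pair lay at a median of 26 bp from each other, against 28 bp over all regions. The pair farthest apart that still counted was a HEY1 region with 133 bp between its summits. The closest pair that did not count was in NOTCH2, with summits at 119997553 and 119997191 on chromosome 1, 362 bp apart.

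Member peaks without a partner had low scores. The peak score is a value the authors deposited for each summit, its scale is not named, and it is used here only to place a peak within its own list. In replicate 1 the 7 member peaks without a partner had a median score of 5.76, with a range of 3.34 to 22.2, and 6 of them were under the list median of 12.4. In replicate 2 the 24 such peaks had a median of 6.91, with a range of 3.11 to 40.0, and 18 were under the list median of 13.9. All peaks without a partner had similar medians, 5.87 and 6.98. The 18 member regions had median scores of 25.0 and 59.2, beside 19.3 and 29.0 for all regions. For 14 of the 18 regions both scores exceeded their list's median, and for 5 both lay in the top 10% of their list, 3 of them at HEY1, 1 at HEY2 and 1 at RBPJ. The matching shares of all regions were not computed. Regions in general scored high, with median percentiles of 63.1 in replicate 1 and 70.3 in replicate 2. HEY1 was chosen for its top score, so nothing is read from these counts.

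**Figure D2:**
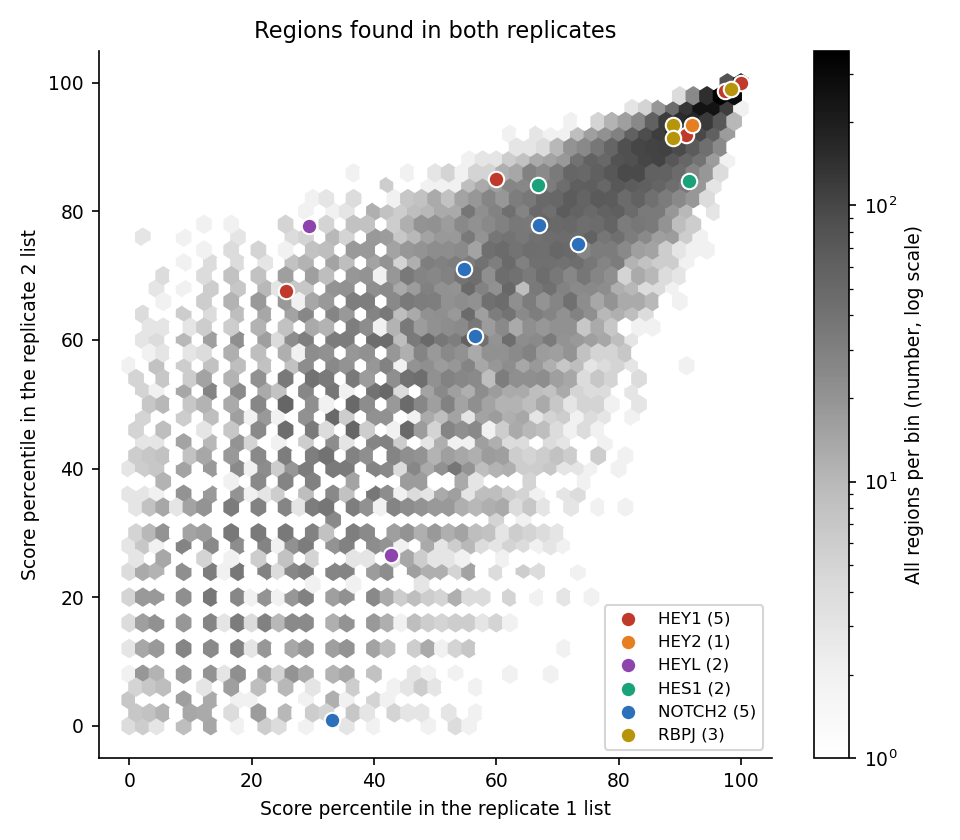
Score percentile (share of the list with a lower score) in replicate 1 on the horizontal axis and replicate 2 on the vertical axis. Grey bins count all 22702 regions and coloured points are the 18 Notch regions, of which 1 NOTCH2 region lies near the bottom edge and the first HEY1 region at the upper right corner.

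HEY1 (Entrez gene 23462) encodes a bHLH repressor that acts downstream of Notch and with HES factors. It lies at 79764010 to 79767767 on chromosome 8 of hg38 and is read from the minus strand. Its strongest region had summits at 79693050 and 79693013, with scores of 789.3 in replicate 1 and 805.6 in replicate 2. These were the top scores of both lists, and in replicate 2 a peak named for DRAM1 had the same score. The next region, 2045 bp away, had summits at 79695095 and 79695124 and scores of 162.0 and 314.8, at percentiles 97.4 and 98.7. Both summits of each region lay more than 71 kb downstream of the TSS, past the end of the gene.

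The other HEY1 regions stood closer to the gene. Summits at 79760254 and 79760261, in an L2a element 6221 and 6214 bp downstream of the TSS, had scores of 76.5 and 105.4. Only 840 bp nearer to the gene, both lists had a summit at 79761094, with scores of 17.5 and 62.0. A weaker region at 79744470 and 79744337, about 22 kb downstream, had scores of 7.12 and 26.0. All 5 regions lay on the 3′ side, and no peak named for HEY1 in either list was upstream of its TSS. The naming rule all but fixes this, since the non-coding LINC01607 starts at 79768142, close to the 5′ end of HEY1. Summits farther upstream were therefore given to other genes, and nothing is read from the side. The 3 HEY1 peaks found in 1 list, at 8945 bp in replicate 1 and at 37829 and 74629 bp in replicate 2, had scores of 5.76, 4.28 and 6.91.

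The strongest region carries the name HEY1 by the start sites of the deposited annotation, and other RefSeq genes lie nearer. Measured to the nearest end of a RefSeq gene, the replicate 1 summit was 22328 bp from the non-coding LOC124901965 and 26892 bp from STMN2, which encodes a neuronal tubulin-binding protein. The HEY1 gene itself was 70960 bp away. Both ends of LOC124901965, at 79715378 and 79724212, were nearer to this summit than the HEY1 TSS. By RefSeq its start is thus nearer than that of HEY1 on either strand. The deposited HEY1 TSS also lay 1292 bp inside the 5′ end of the gene in RefSeq. On the 5′ side of HEY1, up to 100 kb from the gene, another 4 regions were found in both replicates under the names LINC01607 and LOC101927040. The strongest of these had summits at 79827624 and 79827589 with scores of 47.6 and 108.3. A stronger one stood 113.9 kb upstream of the HEY1 TSS in replicate 1 and 113.8 kb in replicate 2, with scores of 336.7 and 522.0. No measurement in these data ties any of these regions to the expression of a gene.

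**Figure D3:**
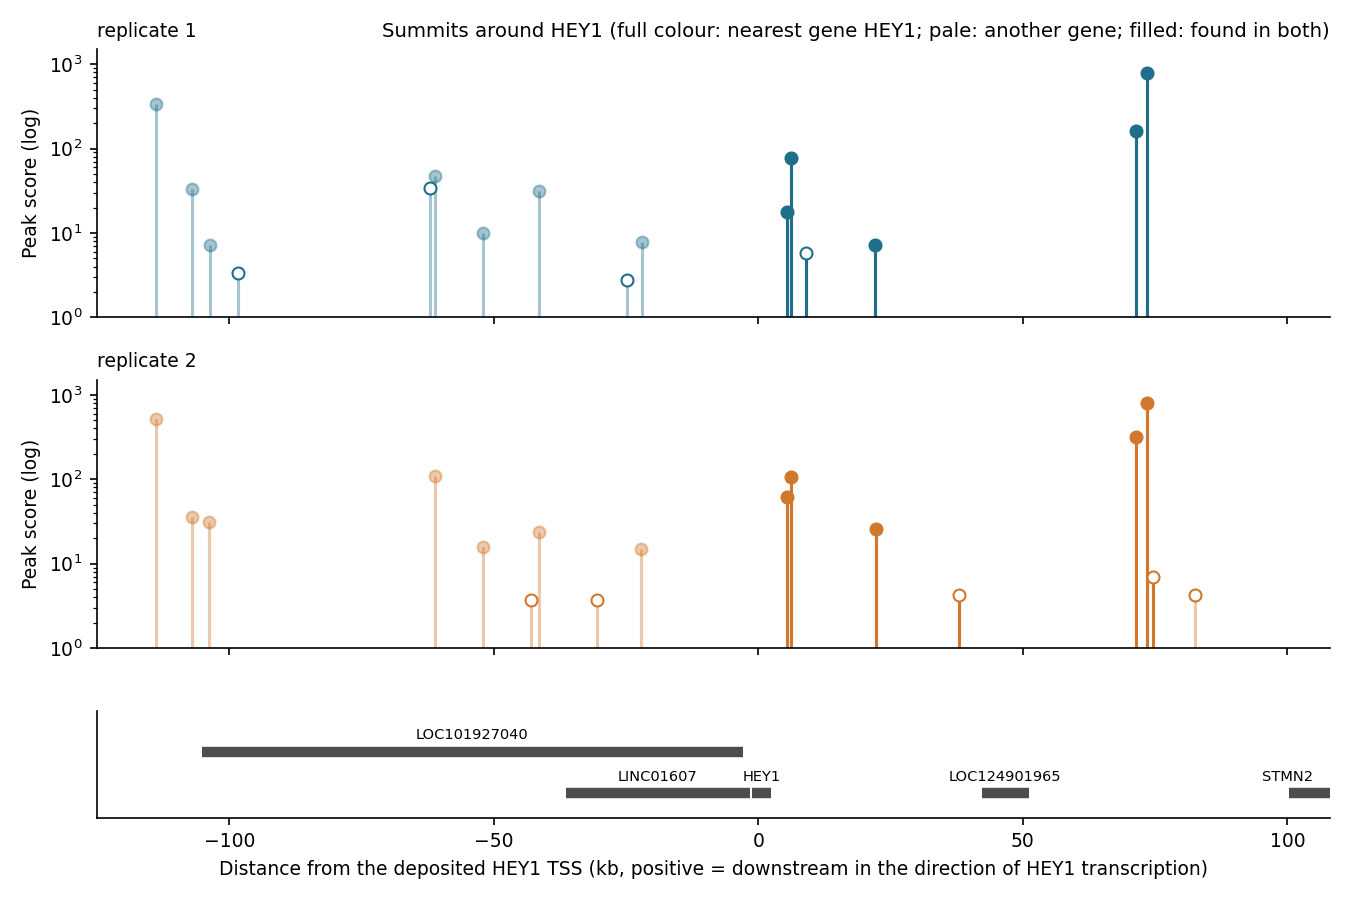
Peak score (log axis) of every summit around HEY1 in each replicate against distance from the deposited HEY1 TSS in kb, with RefSeq gene bodies beneath. The tallest stem of each panel stands 73425 or 73462 bp downstream of the TSS, between LOC124901965 and STMN2, and all stems named for HEY1 are on the positive side. Stems farther upstream carry other names because LINC01607 starts close to the 5′ end of HEY1.

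Other genes also had regions with scores of that size far from their TSS. In all, 50.0% of the 22702 regions were more than 50 kb from the nearest TSS, and 3602 genes had at least 1. By the sum of the score ranks, the 5 genes that followed HEY1 among such regions were DRAM1, ADAMTS9, MIR4431, STXBP6 and LOC100192426. Their scores ran from 654.0 to 706.8 in replicate 1 and from 740.9 to 805.6 in replicate 2. Likeness here means only the rank and the distance, over 2 samples. Within 5 kb of another region lay 6 of the 18 Notch regions, 4 of HEY1 and 2 of HES1, against 30.0% of all regions. That share is close to the background.

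HEY2 (Entrez gene 23493) encodes a relative of HEY1 best known for its part in heart and vessel development. It had a single region found in both replicates, with summits at 125749250 and 125749218 on chromosome 6, annotated as promoter and 336 and 368 bp upstream of the TSS. The scores were 84.1 in replicate 1 and 121.8 in replicate 2, at percentiles 92.1 and 93.4 of their lists. Replicate 2 alone had further summits 3706 and 2615 bp upstream, with scores of 40.0 and 9.03. The first of these had the highest score of any Notch peak that lacked a partner.

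HEYL (Entrez gene 26508), the remaining HEY gene, had regions of lower rank. In intron 1 of 4 the summits at 39637384 and 39637339 on chromosome 1 lay 2292 and 2337 bp downstream of the TSS, with scores of 7.68 and 40.6. The replicate 1 score was under its list's median and the replicate 2 score was above it. About 14 kb upstream, summits at 39653922 and 39653834 had scores of 10.8 and 6.98, both under the medians. A replicate 1 summit 13398 bp upstream, with a score of 3.34, had no partner.

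HES1 (Entrez gene 3280) encodes the bHLH repressor that is the classic target of RBPJ and Notch. The promoter summits were at 194136025 and 194136031 on chromosome 3, 117 and 111 bp upstream of the deposited TSS, with scores of 22.1 and 57.8. At about 1 kb upstream, summits at 194135065 and 194135092 in a CpG island had scores of 79.3 and 60.5. In replicate 1 the upstream summit had the higher score of the pair, and in replicate 2 the scores differed little. Of all 22702 regions, 0.656% carried the CpG island label at the replicate 1 summit. No member summit annotated as promoter carried that label. Whether the label covers islands at promoters is not known, so the share may be too low.

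The HES1 list also held summits of 1 replicate only. Replicate 1 had one in a CpG island, 2161 bp upstream with a score of 22.2, and one 33109 bp downstream with a score of 3.34. Replicate 2 had one in exon 4 of 4, 1776 bp downstream with a score of 18.9, and 3 between 13566 and 24622 bp upstream with scores of 3.11 to 7.62. Under other gene names, 7 further regions in both replicates lay within 100 kb of the gene, 3 upstream and 4 downstream.

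The promoter sequence of HES1 is shown because both summits fall inside it, at bases 128 and 134 counted from 1 at its 5′ end. Sequences come from RefSeq promoter windows on GRCh38.p14, the build of hg38, and run from 250 bases before the TSS to the base before it. Capitals mark matches on either strand to TGGGAA, the core that RBPJ binds, and to GTGTGA, the core of the half-site that T-box factors bind. The HES1 run is chr3:194135898-194136147 on the plus strand.
HES1: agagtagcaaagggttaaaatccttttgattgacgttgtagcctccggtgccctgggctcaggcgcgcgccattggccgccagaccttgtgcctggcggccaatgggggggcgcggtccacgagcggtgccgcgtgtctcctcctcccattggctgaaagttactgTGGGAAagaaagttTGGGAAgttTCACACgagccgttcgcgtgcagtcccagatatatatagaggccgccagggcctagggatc
The RBPJ core matched at bases 167 to 172 and at bases 181 to 186, which overlaps a GGAAGT match, the ETS core, at bases 183 to 188. The T-box core matched at bases 190 to 195, read as TCACAC, and again from base 249, where the match runs past the last base printed. The first T-box match began 62 bases from the replicate 1 summit and 56 bases from the replicate 2 summit. This core was added after seeing the data, and the longer half-site GGTGTGA was not in the HES1 window.

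At HEY2 the summits lay 132 and 164 bases before the promoter window, which is shown for comparison with HES1. It is chr6:125749382-125749631 on the plus strand, with capitals as before.
HEY2: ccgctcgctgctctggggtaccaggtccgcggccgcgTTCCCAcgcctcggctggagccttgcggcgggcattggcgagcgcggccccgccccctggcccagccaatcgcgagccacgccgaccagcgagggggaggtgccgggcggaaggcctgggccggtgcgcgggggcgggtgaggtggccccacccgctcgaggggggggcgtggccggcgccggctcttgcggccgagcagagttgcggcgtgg
The HEY2 window held the RBPJ core at bases 38 to 43, as TTCCCA, and again from base 248 across the TSS, and it held no T-box core. Its share of G and C was 79.0%, against a median of 58.7% over the 35116 RefSeq windows and 59.0% in the HES1 window.

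RBPJ (Entrez gene 3516) encodes the factor through which Notch reaches DNA, and its intronic region had the lowest rank sum of the Notch regions after the strongest of HEY1. This region was in intron 2 of 11, with summits at 26368719 and 26368725 on chromosome 4 and scores of 206.8 and 349.4, at percentiles 98.4 and 99.0. The second had summits at 26319491 and 26319485, at a promoter 219 and 225 bp upstream of the TSS, with scores of 65.2 and 100.8. The third had summits at 26239494 and 26239515, annotated as intergenic and 80216 and 80195 bp upstream, with scores of 64.8 and 123.8. This last region lies inside the RBPJ gene as RefSeq draws it, from 26105449 to 26435131, and so does the deposited TSS. The RBPJ summits of each region lay 6, 6 and 21 bp apart.

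Another 4 RBPJ peaks were in replicate 2 alone, with scores of 7.62 to 21.1. One of them, at 26320891 with a score of 18.7, was at a second RBPJ promoter, 84 bp downstream of the TSS. The replicate 1 list had no RBPJ peak without a partner.

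The promoter next to the second region is shown because the 2 summits lie only 5 and 11 bases before its first base. It is chr4:26319496-26319745 on the plus strand, again with the RBPJ and T-box cores in capitals.
RBPJ: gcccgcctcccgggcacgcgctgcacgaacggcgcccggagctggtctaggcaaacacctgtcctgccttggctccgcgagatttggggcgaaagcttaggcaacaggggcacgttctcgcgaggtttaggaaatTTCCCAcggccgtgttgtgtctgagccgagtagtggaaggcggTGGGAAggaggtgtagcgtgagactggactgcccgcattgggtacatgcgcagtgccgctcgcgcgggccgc
The RBPJ promoter held the core of its own product at bases 136 to 141, as TTCCCA, and at bases 179 to 184. It held no T-box core.

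Motifs were counted in whole RefSeq windows, which run on to 50 bases after the TSS. No window of HEY1 or DLL1 was included, so none of these counts covers those genes. The RBPJ core was present in 4 of the 12 windows of the other 8 Notch genes, and in 24.0% of all windows. These were the windows of HES1, HEY2 and HEYL and 1 of the 5 RBPJ windows. A pair of the RBPJ windows overlap, so the 12 are not all separate sequence. The T-box core was present in 1 of the 12, that of HES1, and in 12.0% of all. The longer half-site GGTGTGA, which contains that core, was in none of the 12 and in 3.45% of all. The ETS core GGAAGT was in 3 of the 12 (22.8% of all) and the E-box CANNTG in 2 (68.7%). Its forms CACGTG (7.26% of all) and CATGTG (11.1%) were in none. The AP-1 motif TGANTCA (7.71% of all) and the SOX motifs ACAAAG (16.1%) and ACAATG (10.8%) were each in 1, an RBPJ window. A match describes letters and not a bound site, and its absence says only that the letters are not in the window.

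**Figure D4:**
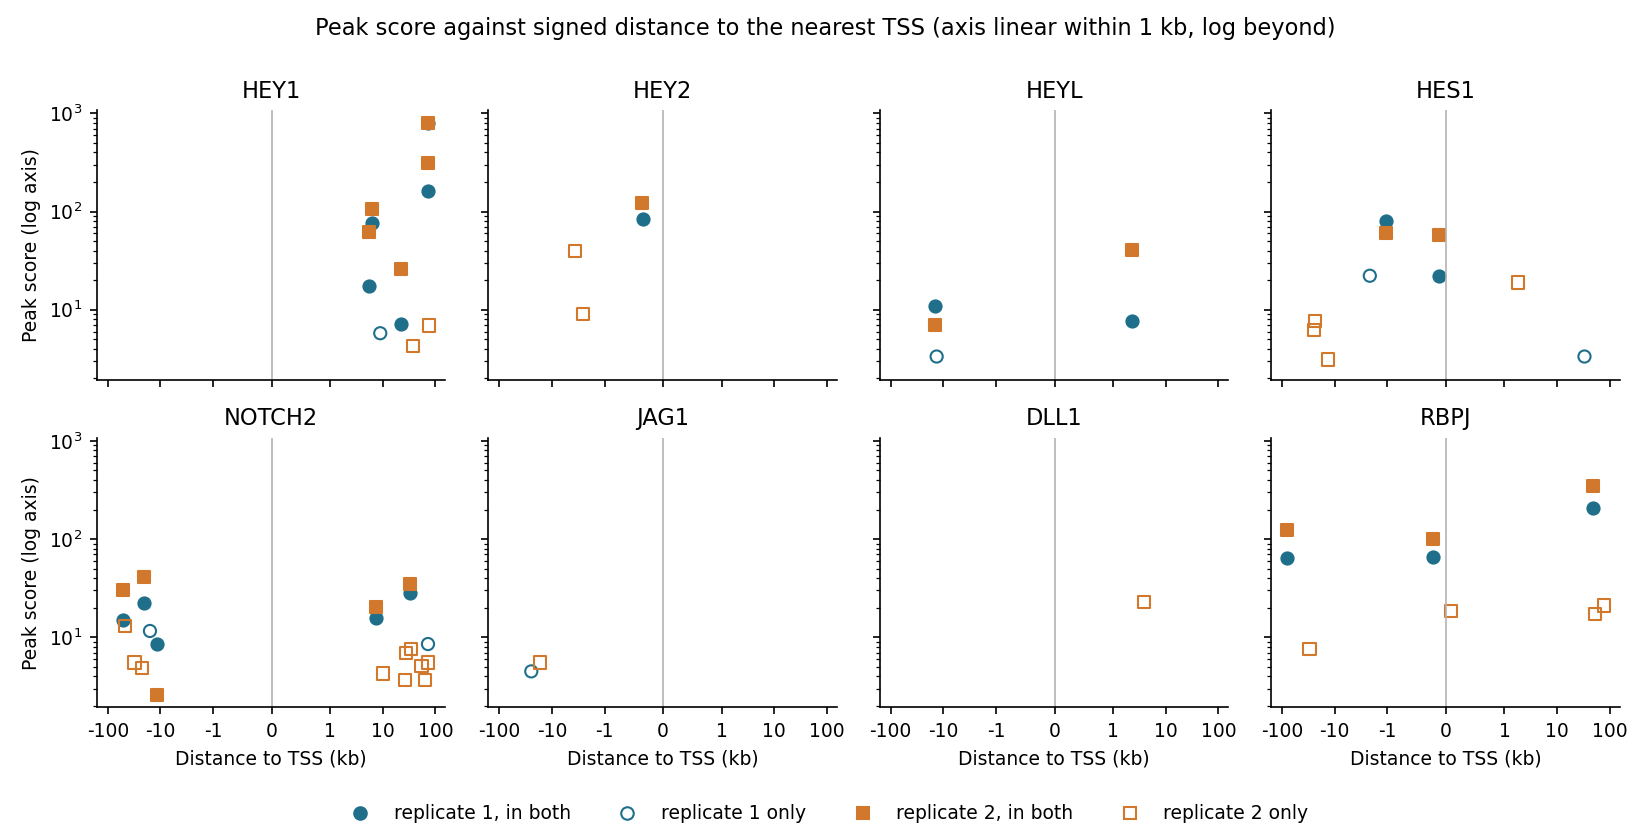
Peak score (log axis) against signed distance to the nearest TSS in kb, linear within 1 kb and log beyond, for the 8 Notch genes with a peak. Circles are replicate 1 and squares replicate 2, filled when found in both, and summits within 1 kb of a TSS appear at HEY2, HES1 and RBPJ, with 1 open square at RBPJ.

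NOTCH2 (Entrez gene 4853), a receptor, had the most peaks, 7 in replicate 1 and 15 in replicate 2. The gene spans 158110 bp, but 4 of these 7 and 6 of these 15 lay upstream of it. None of its regions was at the promoter. Inside intron 1 of 21, summits at 120037030 and 120037050 had scores of 28.0 and 35.3, and summits at 120062253 and 120062228 had scores of 15.8 and 20.2. Upstream of the gene, summits at 120090037 and 120090106 had scores of 22.1 and 40.8, and summits at 120120617 and 120120612, about 51 kb from the TSS, had scores of 14.9 and 30.0. The region at 120081475 and 120081534 had scores of 8.54 and 2.58, and its replicate 2 score was at percentile 0.827 of its list.

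The 10 NOTCH2 peaks of replicate 2 alone had scores of 3.68 to 13.1, all under the list median. Partial copies of NOTCH2, the NOTCH2NL genes, lie elsewhere on chromosome 1, and reads from near-identical copies can be placed in either. The spans of NOTCH2NLA, NOTCH2NLB, NOTCH2NLC and NOTCH2NLR held 10 peaks in replicate 1 and 12 in replicate 2, with 5 regions found in both. How reads were divided among these copies was not tested, so the NOTCH2 values are uncertain to that extent.

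NOTCH1 (Entrez gene 4851) had no peak by the nearest-TSS rule, yet it carried a region. Summits at 136526863 and 136526870 on chromosome 9 fell in intron 2 of 33 of NOTCH1, 19185 and 19178 bp from the 5′ end of the gene. The scores were 27.8 and 49.3, at percentiles 73.3 and 81.4 of their lists. The deposited annotation named MIR4673, a microRNA gene whose TSS was 7237 and 7244 bp away. NOTCH3 (Entrez gene 4854) had no summit inside its span in either list. Its closest summit under any name was 4816 bp past the end of the gene, in replicate 2 alone with a score of 4.28.

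Neither ligand gene had a region found in both replicates under its own name, as was so for most protein-coding genes. JAG1 (Entrez gene 182) had 1 peak in each list, 24643 bp upstream in replicate 1 with a score of 4.50 and 17129 bp upstream in replicate 2 with a score of 5.55, and these were 7514 bp apart. Inside its span each list had 1 summit under the name MIR6870, with scores of 3.91 and 2.51, and they did not coincide. Within 100 kb of JAG1, other names held a pair of regions found in both lists. One, named LINC01752, was 59288 and 59274 bp upstream of the gene with scores of 14.9 and 32.1. The other, in intron 2 of 7 of SLX4IP, was 96948 and 97021 bp past its end with scores of 74.0 and 109.6. DLL1 (Entrez gene 28514) had 1 peak, in replicate 2 alone, at 170286772 on chromosome 6 in intron 4 of 10 with a score of 23.1. The nearest replicate 1 summit was 58298 bp away. It belonged to a region found in both lists under the name MIR4644, 53992 and 54006 bp upstream of DLL1, with scores of 16.5 and 26.8.

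**Figure D5:**
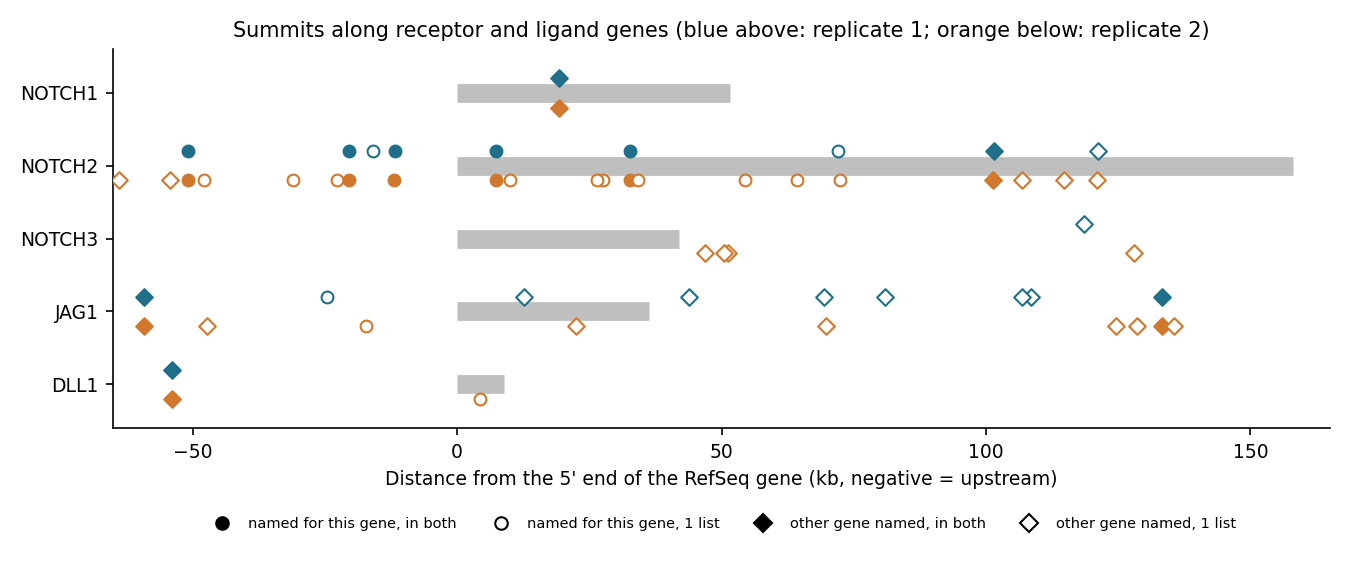
Summits along the receptor and ligand genes against distance in kb from the 5′ end of the RefSeq gene (grey bars), blue for replicate 1 and orange for replicate 2. Circles carry the name of the gene and diamonds another gene's name, filled when found in both lists, and the filled diamonds inside NOTCH1 lie 19185 and 19178 bp from its 5′ end.

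Counting summits inside RefSeq gene spans whatever name they carried, 4 of the 10 genes held a region found in both replicates. These were HEYL with 1, NOTCH1 with 1, NOTCH2 with 3 and RBPJ with 3, while the share among protein-coding genes was 20.9%. One of the NOTCH2 regions was named ADAM30, with summits at 119968208 and 119968263 and scores of 7.12 and 7.62. The 2 longest genes, RBPJ and NOTCH2, thus held 6 of the 8 regions.

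Beyond the 10 genes, 54 other Notch pathway genes were listed by role. Of these, 5 had a region in both replicates within 10 kb of a TSS (9.26%), beside the 10.1% of protein-coding genes. By this rule the wider pathway stood close to the background, and by gene spans, given below, its share was larger than the background. Targets and bHLH relatives gave 3 of 10, namely NRARP and the bHLH relatives BHLHE40 and BHLHE41. None of HES2 to HES7 had a region found in both replicates. Corepressors gave 1 of 8 and proteolysis genes 1 of 8. All other roles gave none. These were the receptor NOTCH4, the 3 canonical ligands JAG2, DLL3 and DLL4, the 2 non-canonical ligands, the 4 coactivators and RBPJ relatives, the 5 glycosylation genes and the 13 genes of endocytosis and turnover. BHLHE41, a bHLH repressor of the clock and of differentiation, had the lowest rank sum, with scores of 132.5 and 174.0 at 36 and 33 bp from its TSS. TLE1, a Groucho corepressor that HES proteins recruit, had promoter summits with scores of 120.4 and 125.5 and 16 regions in all.

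BHLHE40, the paralogue of BHLHE41, had scores of 64.3 and 85.0 at a promoter. NRARP, a feedback inhibitor of Notch, had 34.1 and 37.1 about 2 kb upstream. PSEN2, a catalytic subunit of the protease that frees the Notch intracellular domain, had 19.3 and 32.1 about 7 kb upstream. Inside gene spans 16 of the 53 genes with a RefSeq entry (all but CIR1) held a region, a larger share than the 20.9% of protein-coding genes. Gene length was not taken into account, so nothing is read from this difference. The coactivator genes MAML2 and MAML3 held 12 and 10 regions that the annotation named for other genes, and neither had a region under its own name. Both genes were singled out after their values were seen, and their counts were not set against gene length.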

How the data were processed

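Peak lists of 2 TBX3-3xHA ChIP samples were used. Per the file headers, annotatePeaks.pl of HOMER annotated the summits of each replicate against hg38. The submitters' processing notes name FastQC 0.11.7, cutadapt 2.8, Bowtie2 2.3.5, MACS2 2.1.2 and SAMtools 1.9, with no roles. The peak score is a deposited value whose scale, threshold and control are not given in the sources used here, and the depth behind it is unknown.

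With Python 3.11.15 and pandas 2.3.3, mutually nearest summits within 200 bp were paired. The pairing code was checked on simulated summits spaced wider apart than the pairing distance, which does not cover dense clusters. Gene spans and promoter windows were from RefSeq (GRCh38.p14), and protein-coding genes were those on chromosomes 1 to 22 and X. Score ranks gave tied peaks their best rank.

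The genes and lists were chosen with earlier results of these data known. Each of the 10 genes was named with its regions, and of other pathway genes those with a region within 10 kb of a TSS. NOTCH1 inside its span, ADAM30, MAML2, MAML3 and the genes around HEY1 were singled out after their values were seen. No test was made, since recurrence was part of the rule. Motifs were sought in promoter windows, as no sequence at summits was used here; the T-box core was added after seeing the data. Alternatives covered pairing distance, scores, repeats, windows and single replicates.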

Additional observations from a re-analysis of the deposited data

How the results depend on the processing

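Of 30 alternatives, 16 kept the value within 1.5 times the count or within the interval of the share, and 14 moved it. Both limits serve only as a scale of size and not as a test. The 18 regions became 1 with summits at the same base, 7 among the 5000 highest scores of each list and 47 when any summit in a gene or within 100 kb of it was counted. The share of member peaks with a partner became, in replicates 1 and 2, 4.0% and 2.38% at the same base, 93.3% and 63.6% at or above the median score, and 87.5% and 100.0% among the 5000 highest, where 8 and 7 member peaks were left. Over all peaks these shares were 0.902% and 0.724%, 84.7% and 69.4%, and 80.3% in both lists. The 6 member genes with a region within 10 kb became 3 within 1 kb, and 6 to 7 with 1 replicate left out. The 5 other pathway genes became 3 within 1 kb, 15 within 50 kb, 7 to 8 with 1 replicate left out, with 8 when replicate 1 was left out, and 20 when any summit in the gene or within 10 kb of it was counted, a setting chosen after seeing the data. Of protein-coding genes 2.99% had a region within 1 kb, and no such share was computed for 50 kb, 1 replicate or any summit. A wider setting can raise the count of any gene list, so no gain is read from these counts. The cause of these changes was not tested. No paired analysis was possible because no result came from a test. The motif search at summits was not run, and promoter windows took its place. Without Input values and depth, a missing peak cannot be read as missing binding.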
